A study of Mus musculus with 11 samples.

Results

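The unfolded protein response and the integrated stress response were followed in mouse alveolar macrophages through 38 genes. The genes were chosen by symbol, with earlier results of these data known. Of these, 36 had a transcript cluster on the array and 34 passed a filter on dim signal and were tested, out of 19505 named genes on the array and 12143 tested. The filter let through genes below the background defined further on, Chac1 and Vldlr among them. On each array 8731 to 8952 named genes were above that background, so the shares over all tested genes include dim genes. Pdia4 and Manf were not found by symbol, and Cebpb and Derl3 did not pass the filter on dim signal. Where a symbol had several clusters, the one with the highest mean was read, and every level below is log2(intensity + 1).

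The mice were C57BL/6J females purchased when 6 weeks old, and 11 arrays held 1 sample each. Resolution mice (n = 4) received CpG 1826, an oligonucleotide that activates the DNA sensor Tlr9, as 5 injections spread over 10 days, with lavage on day 30. Acute mice (n = 3) received the same CpG course, with lavage on day 10. Control mice (n = 4) received PBS on that schedule, also with lavage on day 10. Repeated CpG is used in mice as a model of macrophage activation syndrome (MAS), a hyperinflammatory state. Cells from bronchoalveolar lavage were purified by adherence, total RNA was taken with Trizol, and biotin-labelled targets were made with a 3' IVT kit. Titles call the samples biological replicates but do not say whether lavages were pooled, so the p-values measure the spread between these samples. No PBS group of day 30 was analysed here, so in resolution versus control the CpG course and the later day cannot be told apart.

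Proteins that enter the endoplasmic reticulum fold there with the help of chaperones, glycan-binding lectins and disulfide isomerases. When unfolded proteins build up, the membrane sensors Ern1 (IRE1), Eif2ak3 (PERK) and Atf6 start the unfolded protein response. Ern1 splices the mRNA of Xbp1, Atf6 is cleaved to an active factor, and both raise chaperones and the machinery of ER-associated degradation (ERAD), which returns misfolded proteins to the cytosol. Eif2ak3 phosphorylates the initiation factor eIF2, a step it shares with kinases that sense amino acid shortage, heme or viral RNA, and this integrated stress response slows translation while Atf4 is made and turns on genes of amino acid supply. An array signal over a whole transcript does not show splicing, cleavage or phosphorylation.

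Promoters of genes of this response carry known response elements. Shown are 8 stretches of the mouse RefSeq promoters (GRCm38.p6, 250 bases before to 50 after each start). They were picked from members that fell on day 30 and from members that did not pass the test. Each element shown occurs in members of both kinds. The ER stress response element (ERSE) was searched as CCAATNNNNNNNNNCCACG on both strands, and 9 of the 33 members with a promoter entry held it, against 0.137% of 27025 genes. The second such element, ERSE-II, searched as ATTGGNCCACG, was in Dnajb11 and Herpud1, against 0.0444% of all genes. Since the members are genes of this response and the elements were known from such genes, these shares describe the members and test nothing. The composite element bound by Atf4, searched as TGATGNAA, was in Herpud1, Trib3, Chac1, Vldlr and Asns, against 4.51% of all genes. A core of the cyclic AMP response element, TGACGT, was also searched and was in Hspa5, Dnajb11, Canx and Ppp1r15a, against 8.37% of all genes. Capitals mark the matches of the first 3 elements, each line runs 5′ to 3′ along the gene's own strand, and a match to the opposite strand appears as the reverse complement, as in Calr, Trib3 and the first match of Herpud1. No member held both ERSE and ERSE-II, and the 2 matches of Herpud1 do not overlap. ERSE is shown in Hspa5, Calr, Dnajc3 and Pdia6, ERSE-II in Herpud1 and Dnajb11, and the Atf4 element in Herpud1, Asns and Trib3.
Hspa5 (chr2:34772005-34772063, plus strand): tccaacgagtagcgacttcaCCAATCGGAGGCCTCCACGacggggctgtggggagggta
Calr (chr8:84847055-84847113, minus strand): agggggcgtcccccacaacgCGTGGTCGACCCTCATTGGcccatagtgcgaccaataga
Dnajc3 (chr14:118937807-118937865, plus strand): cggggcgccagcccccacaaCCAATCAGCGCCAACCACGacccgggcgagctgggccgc
Pdia6 (chr12:17266471-17266529, plus strand): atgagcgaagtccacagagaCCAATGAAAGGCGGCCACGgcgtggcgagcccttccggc
Herpud1 (chr8:94386297-94386407, plus strand): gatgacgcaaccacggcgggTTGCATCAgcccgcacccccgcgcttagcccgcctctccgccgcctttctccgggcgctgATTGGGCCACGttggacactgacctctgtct
Dnajb11 (chr16:22857832-22857882, plus strand): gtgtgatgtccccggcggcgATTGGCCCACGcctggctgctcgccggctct
Asns (chr6:7693205-7693252, minus strand): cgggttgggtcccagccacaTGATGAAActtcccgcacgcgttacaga
Trib3 (chr2:152344019-152344066, minus strand): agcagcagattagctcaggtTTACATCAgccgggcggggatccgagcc

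The cells carried the alveolar macrophage markers of their label, and markers of some other cells were also above background. All 15 alveolar macrophage markers on the array, among them Siglecf, Marco, Pparg and Mrc1, were above background on every array, where background is the 90th percentile of 23 probe sets without a mouse target (6.12 to 6.24 on the log2 scale). Among B and plasma cell markers 8 of 10 were above background on no array (Cd79a, Cd79b, Irf4, Jchain, Ms4a1, Mzb1, Pou2af1 and Tnfrsf17), as were 10 of 12 T and NK cell markers. The same held for only 2 of 9 monocyte, 2 of 10 neutrophil and 2 of 15 lung epithelium markers. Above background on all arrays were 4 monocyte, 4 neutrophil and 8 lung epithelium markers. The summed intensity of 15 lung epithelium markers was 26066 to 29788 on resolution arrays, 30058 to 48015 on acute arrays and 16113 to 25194 on control arrays. On resolution arrays this sum rested mainly on Krt19 and Cdh1, with means of 13.79 and 13.42, and the next brightest marker was Sftpc at 10.45. Krt19 was 3.43-fold higher on resolution than on control arrays (1 of 13 tested epithelial markers, 7.69%, against 9.6% of all genes). Lower were 4 of the 13 (30.8%, against 9%), namely Bpifa1, Scgb3a2, Scgb1a1 and Cyp2f2, by 2.25-fold to 3.69-fold. On acute relative to control arrays 4 epithelial markers were higher (2.78-fold to 6.25-fold, 30.8%, against 0.189% of all genes) and 0 lower. On resolution relative to acute arrays 1 was higher (7.69%, against 7.77%) and 8 lower (61.5%, against 6.69%). For 9 monocyte markers the sum was 47071 to 54892 on resolution arrays, 38406 to 41636 on acute arrays and 43597 to 52509 on control arrays. This sum rested mainly on Fn1, with means of 15.44, 14.94 and 15.15 in that order, against at most 12.64 for the others (Treml4 on control arrays). Of 7 tested monocyte markers 1 was higher (14.3%, against 9.6% of all genes) and 2 lower (28.6%, against 9%) on resolution than on control arrays. The neutrophil sum over 10 markers was 4524 to 8030 on resolution arrays, 4744 to 5736 on acute arrays and 3462 to 10570 on control arrays. Of 7 tested neutrophil markers 1 was higher (14.3%, against 9.6% of all genes) and 2 lower (28.6%, against 9%) on resolution than on control arrays. The part of these other cells in the results below was not tested. Median intensity per array was 51.4 to 57.0. Over the 12143 tested genes, control replicate 4 stood apart from all other arrays on the third principal component, at 34.9 against -9.22 to 7.26, a component that held 10.2% of the variance. On control replicate 4 the neutrophil marker S100a8 was 12.16, against 8.55 to 9.81 on the other control arrays. Retnlg was 7.11 there, against 4.01 to 4.43. The neutrophil markers S100a9 (8.88), Mmp8 (11.97) and Ltf (6.32) were also highest on it among control arrays, as was Camp, which was below background. Cxcr2 and Mpo were instead lowest on it, Mpo below background, and Csf3r and Elane were neither highest nor lowest. Why this array stood apart was not tested. Results that change without control replicate 4 are named.

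Resolution versus control asks what the macrophages expressed on day 30. Of the 34 tested members 2 were higher (5.88%), 8 were lower (23.5%) and 24 did not pass limma's test at an adjusted p of 0.05, against 9.6% of all tested genes higher and 9% lower. The share of members that were higher did not exceed that of all genes. The 2 that rose were Xbp1 and the stress sensor Sesn2, and the 8 that fell were Hspa5, Hyou1, Calr, Herpud1, Sel1l, Derl2, Atf4 and Ppp1r15a. The median difference was -0.17 over the members and 0.00 over all genes. Groups did not overlap for 12 members (35.3%, 2 higher and 10 lower on resolution arrays), against 22.7% of all genes. Without control replicate 4, 2 members were higher and 6 lower, with Calr (adjusted p = 0.0552) and Derl2 (0.0871) no longer passing. The alveolar macrophage markers themselves were not constant. On resolution relative to control arrays 6 of 15 were higher (40%, against 9.6% of all genes) and 2 lower (13.3%, against 9%). In bulk RNA fewer cells of a type and less RNA per cell cannot be told apart.

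Acute versus control asks about the end of the CpG course, and no member passed the test. The adjusted p of the members was at least 0.358, and 3 of 34 members had an unadjusted p under 0.05 with limma. Among all genes 0.189% were higher and 0.0494% lower on acute arrays, and 9.05% had an unadjusted p under 0.05, so few genes of any kind were called in this comparison. The median difference of the members was -0.11, with 11 positive and 23 negative differences. Groups did not overlap for 5 members, all lower on acute arrays (14.7%), against 10.1% of all genes. These were Psat1, Sel1l, Derl1, Pdia3 and Syvn1.

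Resolution versus acute compares the same CpG course at different lavage days, so it tests whether day 30 differed from day 10 directly. Of 34 members 2 were higher on resolution arrays (5.88%), against 7.77% of all genes, and 4 were lower (11.8%), against 6.69% of all genes. The higher ones were Xbp1 and Ern1, and the lower ones were Hspa5, Herpud1, Atf4 and Ppp1r15a. Groups did not overlap for 13 members (38.2%, 5 higher and 8 lower), against 26.3% of all genes. This count rested on few arrays: 3 members passed without acute replicate 1, 1 without acute replicate 2, 2 without acute replicate 3 and 2 without resolution replicate 2. With the arrays scaled to a common median, 0 members were higher and 4 lower. That scaling also turned the split over all genes, with 673 higher and 989 lower in place of 943 and 812, and quantile normalization gave 685 and 1151. The split in resolution versus control turned too but moved less. It was 890 higher and 1198 lower with a common median, and 1000 and 1260 with quantile normalization, in place of 1166 and 1093. In acute versus control quantile normalization gave 29 higher and 3 lower in place of 23 and 6. Neither scaling moved the median of all genes by over 0.1.

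**Figure D1:**
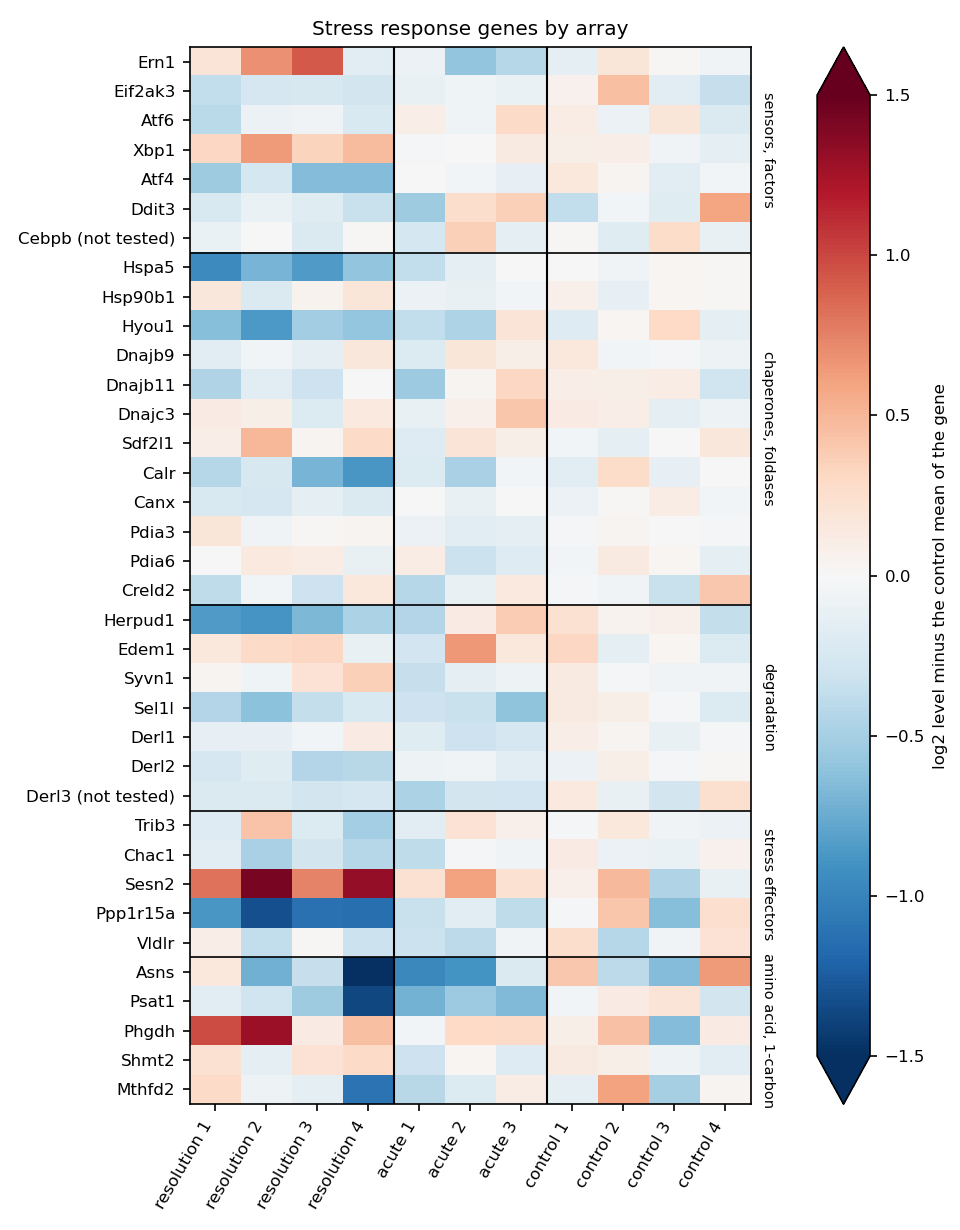
Level of each of the 36 measured members (rows, by role) on each array (columns), as the log2 level minus the mean of the 4 control arrays. Hspa5, Atf4, Herpud1 and Ppp1r15a are blue on all 4 resolution arrays, Xbp1 and Sesn2 are red, and resolution 4 stands out in Asns, Psat1 and Mthfd2.

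Of the 6 tested sensors and transcription factors, Xbp1 rose and Atf4 fell on resolution relative to control arrays (16.7% each, against 9.6% and 9% of all genes). Xbp1 encodes the factor whose mRNA Ern1 splices. Its levels were 16.25, 16.58, 16.27 and 16.41 on resolution arrays, 15.92, 15.93 and 16.06 on acute arrays, and 16.02, 16.04, 15.88 and 15.80 on control arrays. Every resolution array lay above every other array, and acute and control arrays overlapped. Xbp1 was 1.36-fold higher on resolution than on control arrays (difference 0.44 ± 0.11 SE, adjusted p = 0.016) and 1.33-fold higher than on acute arrays (0.41 ± 0.12 SE, adjusted p = 0.043). The first call ended without control replicates 3 and 4 together (adjusted p = 0.14) and with a common median (0.0557). The second ended in 14 of 23 alternative settings. Prdm1, a transcription factor of plasma cells that the listed B and plasma cell markers include, was 1.98-fold higher on resolution than on control arrays (0.98 ± 0.21 SE). It was 1 of 2 tested markers of that list (50%, against 9.6% of all genes). Against acute arrays its difference of 0.66 did not pass, and those groups overlapped (13.60 to 14.37 on resolution and 12.99 to 13.66 on acute arrays). Sdc1, the other tested marker, averaged 5.58 on resolution and 6.01 on control arrays and did not pass. Whether plasma cells had a part in the Xbp1 level was not tested. The defining plasma cell genes Jchain, Mzb1 and Tnfrsf17 were below background on every array.

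Atf4, the main transcription factor of the integrated stress response, moved the other way. Its levels were 14.03, 14.30, 13.91 and 13.91 on resolution arrays, 14.56, 14.51 and 14.44 on acute arrays, and 14.71, 14.60, 14.41 and 14.52 on control arrays. All 4 resolution arrays lay below all 7 others. The fall was 1.44-fold against control (-0.52 ± 0.12 SE, adjusted p = 0.00883), and it passed in all 23 alternative settings. Against acute it was 1.38-fold (-0.47 ± 0.13 SE, adjusted p = 0.0296), a call that ended in 8 of 23 settings, including without any 1 of the 3 acute arrays. Production of Atf4 protein is set mainly at translation, which the arrays do not measure.

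Ern1, the kinase and nuclease that splices Xbp1, had levels of 8.43, 8.92, 9.15 and 8.06 on resolution arrays, 8.14, 7.64 and 7.81 on acute arrays, and 8.09, 8.42, 8.25 and 8.18 on control arrays. Resolution replicate 4 lay among the day 10 arrays, so the groups overlapped. Ern1 was 1.72-fold higher on resolution than on acute arrays (0.78 ± 0.23 SE, adjusted p = 0.0378), and this ended in 8 of 23 settings, both scalings included (0.0661 and 0.128). Against control the difference was 0.41 ± 0.21 SE (adjusted p = 0.21), and without resolution replicate 4 it had an adjusted p of 0.0444.

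The other sensors and factors did not pass the test in any comparison. Eif2ak3, the kinase that phosphorylates eIF2 in ER stress, averaged 7.21 ± 0.06 (SD, n = 4) on resolution arrays and 7.50 ± 0.34 (SD, n = 4) on control arrays, with a difference of -0.28 ± 0.15 SE. Its control arrays were spread from 7.15 to 7.94. Without control replicates 3 and 4, the 2 lowest, the difference had an adjusted p of 0.0331. Atf6, the membrane-bound factor released by cleavage, differed by -0.19 ± 0.13 SE between resolution and control. Ddit3 (CHOP), which promotes death under long stress, stood at 11.14, 11.27, 11.19 and 11.04 on resolution arrays, at 10.84, 11.64 and 11.72 on acute arrays, and at 11.00, 11.32, 11.19 and 11.97 on control arrays. The resolution arrays lay close together inside the range of the others, with a difference from control of -0.21 ± 0.22 SE and a 95% interval of -0.69 to 0.27. A second cluster of Ddit3 gave -0.39 ± 0.22 SE (adjusted p = 0.269). Cebpb, a leucine zipper partner of Ddit3, was below background on all 11 arrays, at 4.46 to 5.08.

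**Figure D2:**
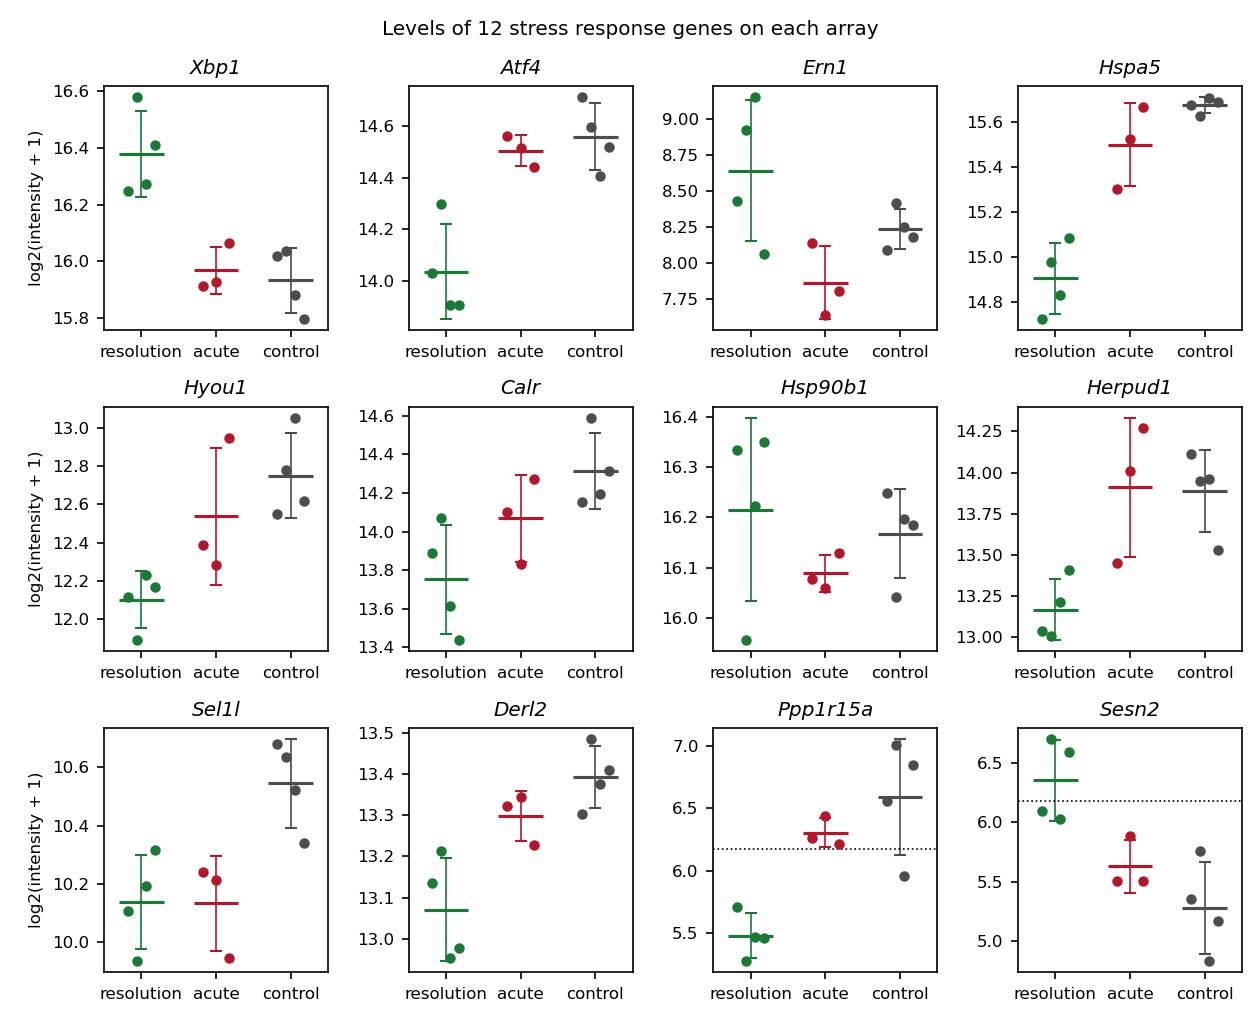
log2(intensity + 1) of 12 members on every array, with resolution left, acute in the middle and control right, where points are arrays, long bars are means and whiskers are 1 SD. The dotted line is the mean background, and vertical axes differ between panels. Resolution points of Hspa5, Atf4, Herpud1 and Ppp1r15a lie below all others, those of Xbp1 and Sesn2 above all others, and Hsp90b1 is shown as a chaperone whose groups overlap.

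Among the 12 tested chaperones and foldases 3 fell on resolution arrays relative to control (25%, against 9% of all genes), 0 rose (against 9.6%) and 9 did not pass. The largest change in this group was in Hspa5 (BiP), the HSP70 of the endoplasmic reticulum, which also holds the sensors inactive. Its levels were 14.72, 14.98, 14.83 and 15.08 on resolution arrays, 15.30, 15.53 and 15.67 on acute arrays, and 15.68, 15.63, 15.71 and 15.69 on control arrays. Control arrays spanned less than 0.1, and each resolution array lay below every acute and control array. The fall was 1.71-fold against control (-0.77 ± 0.12 SE, adjusted p = 0.000641) and 1.51-fold against acute (-0.60 ± 0.13 SE, adjusted p = 0.00791). Both calls passed in all 23 alternative settings, with differences of -0.83 to -0.71 against control.

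Hyou1, an HSP110 that exchanges the nucleotide of Hspa5, stood at 12.12, 11.89, 12.23 and 12.17 on resolution arrays, at 12.39, 12.28 and 12.95 on acute arrays, and at 12.55, 12.78, 13.05 and 12.62 on control arrays. No resolution array reached any array of day 10. Hyou1 was 1.57-fold lower on resolution than on control arrays (-0.65 ± 0.16 SE, adjusted p = 0.0151), a call that ended only without control replicates 3 and 4 together (0.0898). Against acute the difference of -0.44 ± 0.18 SE had an adjusted p of 0.124. Calr, a lectin chaperone that binds glycoproteins and calcium, stood at 13.89, 14.07, 13.61 and 13.44 on resolution arrays, at 14.10, 13.83 and 14.27 on acute arrays, and at 14.15, 14.59, 14.19 and 14.31 on control arrays. Its resolution arrays lay below all control arrays but overlapped the acute arrays. Calr was 1.47-fold lower on resolution than on control arrays (-0.56 ± 0.16 SE, adjusted p = 0.0294), which ended in 6 of 23 settings (0.0507 to 0.0847). Canx, its membrane-bound relative, also had groups that did not overlap, at 13.85 to 13.95 on resolution arrays and 14.01 to 14.21 on control arrays, but its difference of -0.21 ± 0.10 SE had an adjusted p of 0.161.

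The remaining chaperones and foldases had overlapping groups in resolution versus control. Hsp90b1 (GRP94), the HSP90 of the same compartment, averaged 16.22 ± 0.18 (SD, n = 4) on resolution arrays and 16.17 ± 0.09 (SD, n = 4) on control arrays, with a difference of 0.05 and a 95% interval of -0.20 to 0.30. Differences near 0 were also measured for Dnajb9 (-0.05), a J-domain partner of Hspa5, Dnajc3 (0.04), which restrains Eif2ak3, and the disulfide isomerases Pdia3 (0.05) and Pdia6 (0.04). The J-domain protein Dnajb11 differed by -0.23 ± 0.18 SE, the disulfide isomerase Creld2 by -0.14 ± 0.18 SE, and Sdf2l1, a partner of Dnajb11, by 0.23 ± 0.13 SE, with adjusted p values of 0.436, 0.649 and 0.264.

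Setting these values beside the promoters shown above, 8 tested members held an ERSE match, of which Hspa5 and Calr were lower on resolution than on control arrays, 0 were higher and 6 did not pass, against 9% of all genes lower. These 6 were Hsp90b1, Dnajc3, Canx, Pdia6, Creld2 and Syvn1. The 11 other tested genes with this match were not called. Of the ERSE-II members, Herpud1 was lower and Dnajb11 did not pass. Among the 6 other tested genes with ERSE-II, Krtcap2 was higher (0.79 ± 0.13 SE) and Rbm39 was lower (-0.47 ± 0.11 SE), both named here after their values were seen. None of the tested members with the Atf4 element other than Herpud1 passed in any comparison, and Chac1 and Vldlr were below background on all arrays. Xbp1, Atf4, Ppp1r15a, Sesn2, Sel1l, Derl2 and Ern1 had none of these 3 elements in this window, and no promoter of Hyou1 was used here.

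**Figure D3:**
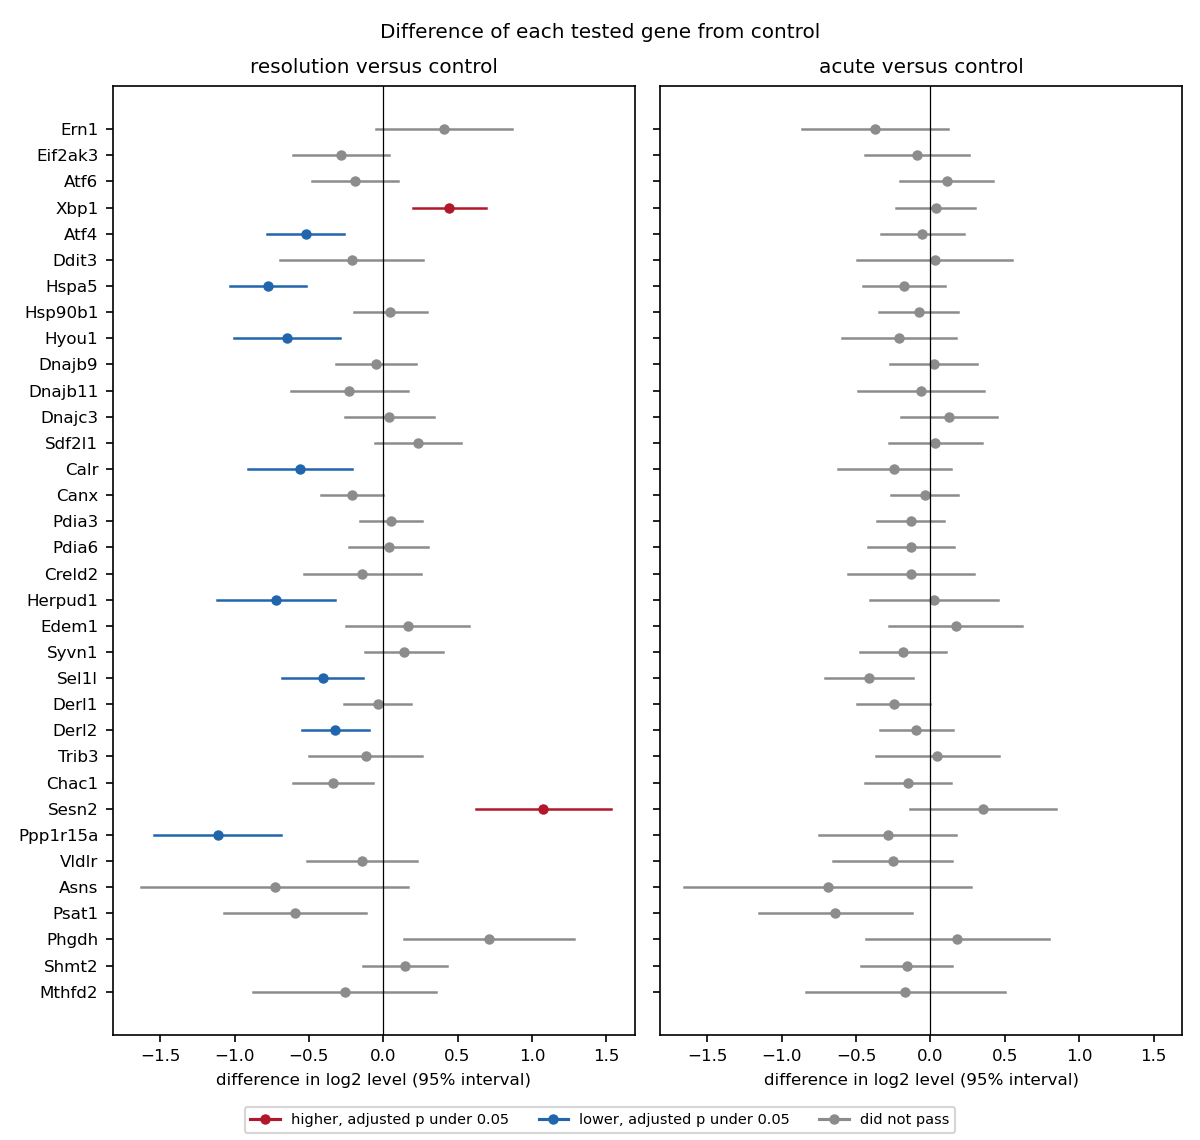
Difference in log2 level from control for each of the 34 tested members, with resolution versus control on the left and acute versus control on the right, as limma estimates with 95% intervals. Both panels share the 4 control arrays. Blue marks the 8 members that were lower and red the 2 that were higher at an adjusted p under 0.05 on the left, and no member is coloured on the right.

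Of the 6 tested members of ERAD, 3 fell on resolution arrays relative to control (50%, against 9% of all genes) and 0 rose, and the calls of 2 of the 3, Sel1l and Derl2, ended in many alternative settings. Herpud1, which gathers the degradation complex in the membrane, stood at 13.04, 13.01, 13.21 and 13.41 on resolution arrays, at 13.45, 14.01 and 14.27 on acute arrays, and at 14.12, 13.95, 13.96 and 13.53 on control arrays. Resolution arrays were the 4 lowest of the 11, although acute replicate 1 and control replicate 4 came near them. The fall was 1.65-fold against control (-0.72 ± 0.18 SE, adjusted p = 0.0157), passing in all 23 settings, and 1.67-fold against acute (-0.74 ± 0.20 SE, adjusted p = 0.0257), ending in 5 of 23.

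Sel1l, the scaffold of the ubiquitin ligase Syvn1, had 10.11, 9.93, 10.19 and 10.32 on resolution arrays, 10.24, 10.21 and 9.95 on acute arrays, and 10.68, 10.64, 10.52 and 10.34 on control arrays. Both CpG groups lay below every control array and overlapped each other. Sel1l was 1.33-fold lower on resolution than on control arrays (-0.41 ± 0.13 SE, adjusted p = 0.0409), a call that ended in 10 of 23 settings. On acute arrays the difference from the same controls was -0.41 ± 0.14 SE with an adjusted p of 0.358, the smallest of any member in acute versus control. Resolution and acute arrays differed by 0.00, with a 95% interval of -0.29 to 0.30. Derl2, a derlin of the membrane channel, stood at 12.95 to 13.21 on resolution arrays, at 13.23 to 13.34 on acute arrays and at 13.30 to 13.48 on control arrays. It was 1.25-fold lower on resolution than on control arrays (-0.32 ± 0.10 SE, adjusted p = 0.0477), close to the threshold, and this ended in 16 of 23 settings.

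The other ERAD members did not pass. Syvn1 was 10.63 to 11.06 on resolution arrays, 10.35 to 10.62 on acute arrays and 10.64 to 10.84 on control arrays. Its resolution arrays lay just above the acute arrays, with a difference of 0.32 ± 0.13 SE and an adjusted p of 0.126. Derl1 differed by -0.04 ± 0.10 SE in resolution versus control and by -0.25 ± 0.11 SE in acute versus control (adjusted p = 0.542). Edem1, which trims mannose from misfolded glycoproteins, differed by 0.16 ± 0.19 SE in resolution versus control. Derl3 was below background on all 11 arrays, at 4.52 to 5.24.

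The 5 effectors of the integrated stress response were dim, and 1 rose and 1 fell in resolution versus control (20% each, against 9.6% and 9% of all genes). Ppp1r15a (GADD34), which directs a phosphatase to eIF2 and so ends the response, had 5.71, 5.28, 5.47 and 5.46 on resolution arrays, 6.26, 6.44 and 6.22 on acute arrays, and 6.56, 7.01, 5.96 and 6.85 on control arrays. It was above background on 0 of 4 resolution arrays, 3 of 3 acute arrays and 3 of 4 control arrays. Every resolution array lay below every day 10 array, and since only a bound is known there, Ppp1r15a was at least 1.32-fold lower on resolution than on control arrays (measured difference -1.11 ± 0.20 SE, adjusted p = 0.00179). Against acute it was at least 1.08-fold lower (-0.83 ± 0.21 SE, adjusted p = 0.0212), which ended in 3 of 22 settings. The call against control passed in all 22 settings that tested it.

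Sesn2, a sestrin that restrains mTORC1 when leucine is short, went the opposite way. Its levels were 6.10, 6.70, 6.03 and 6.60 on resolution arrays, 5.50, 5.89 and 5.50 on acute arrays, and 5.36, 5.76, 4.83 and 5.17 on control arrays. It was above background on 2 of 4 resolution arrays and on no acute or control array. Resolution arrays were the 4 highest, and Sesn2 was at least 1.14-fold higher there than on control arrays (measured difference 1.08 ± 0.21 SE, adjusted p = 0.00345), passing in all 22 settings that tested it. Against acute the measured difference of 0.72 ± 0.23 SE had an adjusted p of 0.0509, and it passed in 8 of 22 settings. Trib3, a pseudokinase that feeds back on Atf4, was above background on 1 of 4 resolution, 2 of 3 acute and 3 of 4 control arrays, and its difference of -0.12 ± 0.18 SE from control did not pass. Chac1, which degrades glutathione, and Vldlr, a lipoprotein receptor, were below background on every array.

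**Figure D4:**
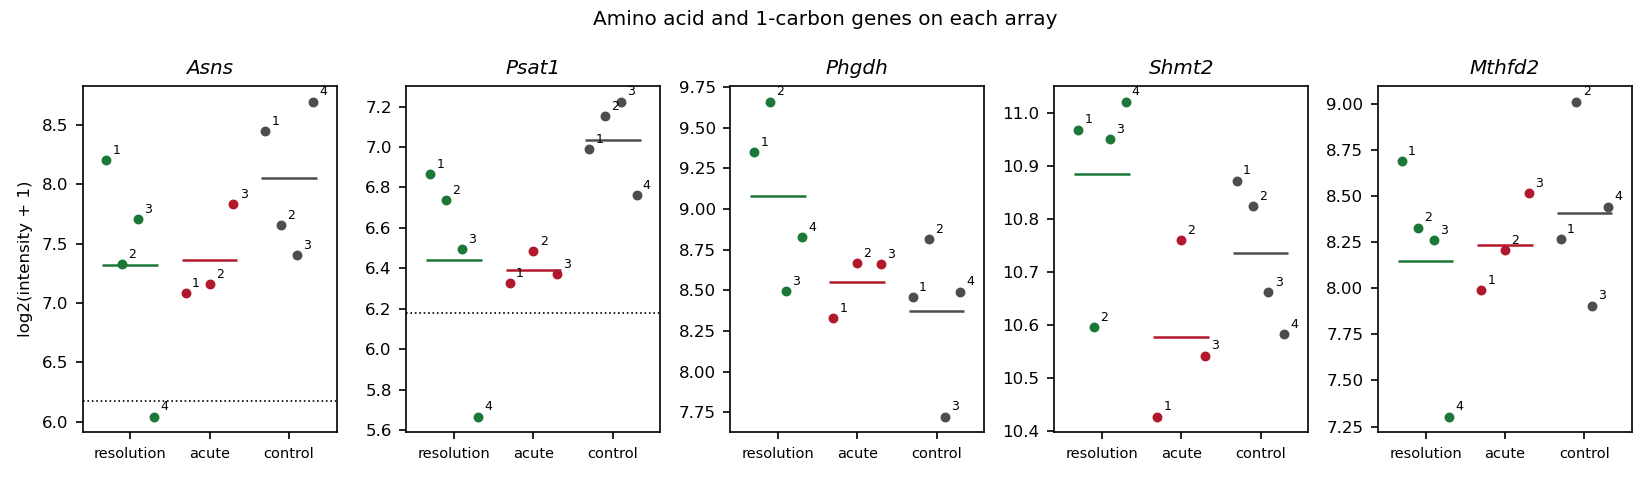
log2(intensity + 1) of the 5 amino acid and 1-carbon genes on every array, with resolution left, acute in the middle and control right, where numbers are replicates, bars are group means and the dotted line is the mean background. Resolution replicate 4 is the lowest of the 11 arrays in Asns, Psat1 and Mthfd2, and axes differ between panels.

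The 5 enzymes of amino acid and 1-carbon supply, which Atf4 is known to induce, did not pass in any comparison and varied between arrays of a group. Asns, which makes asparagine, stood at 8.21, 7.33, 7.71 and 6.04 on resolution arrays, at 7.08, 7.16 and 7.84 on acute arrays, and at 8.45, 7.66, 7.40 and 8.70 on control arrays. Resolution replicate 4 was below background while resolution replicates 1 and 3 lay within the control range. The difference from control of -0.73 ± 0.41 SE had an adjusted p of 0.255 and a 95% interval of -1.63 to 0.16. Psat1, a transaminase of serine synthesis, stood at 6.87, 6.74, 6.49 and 5.67 on resolution arrays, at 6.33, 6.48 and 6.37 on acute arrays, and at 6.99, 7.15, 7.22 and 6.76 on control arrays. The acute arrays of Psat1 lay below every control array, by -0.64 ± 0.24 SE (adjusted p = 0.44), and resolution differed from the same controls by -0.59 ± 0.22 SE (adjusted p = 0.0824).

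Phgdh, which opens serine synthesis from glycolysis, had a difference of the other sign. It stood at 9.35, 9.66, 8.49 and 8.83 on resolution arrays, at 8.33, 8.67 and 8.66 on acute arrays, and at 8.46, 8.81, 7.72 and 8.49 on control arrays. Resolution replicates 1, 2 and 4 lay above all acute and control arrays, replicate 4 narrowly, and replicate 3 lay within their range. The difference from control of 0.71 ± 0.26 SE had an adjusted p of 0.0807. Without resolution replicate 3 that p was 0.0334, and for Psat1 without resolution replicate 1 it was 0.0438. The mitochondrial enzymes Shmt2 and Mthfd2, which pass 1-carbon units from serine to folate, differed from control by 0.15 ± 0.13 SE and -0.26 ± 0.28 SE on resolution arrays. Mthfd2 was 7.30 on resolution replicate 4, against 8.26 to 8.69 on the other resolution arrays. Resolution replicate 4 was the lowest resolution array for 3 of the 5 genes and acute replicate 1 the lowest acute array for all 5.

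Acute replicate 1 was also the lowest acute array for 20 of the 34 tested members, against 10 for acute replicate 2 and 4 for acute replicate 3. It was the highest acute array for 7 of them. Members lowest on it included Hspa5 (15.30), Herpud1 (13.45), Dnajb11 (10.35), Creld2 (11.70), Edem1 (11.72) and Ddit3 (10.84). How often this array was the lowest over all tested genes was not counted. Without acute replicate 1, 0 members still passed in acute versus control.

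Wider sets of genes of the same pathways were read beside the members. Of 51 tested further genes of ER folding, translocation and ERAD, 1 was higher and 6 were lower on resolution than on control arrays, with a median difference of -0.08. The share that was higher was 1.96%, against 9.6% of all genes, and the share that was lower was 11.8%, against 9%. Hspa13, an HSP70 relative of the microsomes, was 1.85-fold lower (-0.88 ± 0.16 SE), and Sec24d, a cargo adaptor of vesicles leaving the endoplasmic reticulum, was 1.72-fold lower (-0.78 ± 0.13 SE). Vcp, the ATPase that pulls ERAD substrates from the membrane, was 1.69-fold lower, and Nploc4, its cofactor, was 1.41-fold lower. On resolution relative to acute arrays 2 of the 51 were higher (3.92%, against 7.77% of all genes) and 6 lower (11.8%, against 6.69%). The 2 higher ones were Sil1, a nucleotide exchange factor of Hspa5 (0.84 ± 0.25 SE), and Mlec, a lectin that binds glucosylated glycans (0.53 ± 0.14 SE).

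Among 25 tested regulators of the 2 responses, 5 were higher (20%, against 9.6% of all genes) and 2 lower (8%, against 9%) on resolution than on control arrays. Oma1, the mitochondrial protease that relays mitochondrial stress to eIF2 kinases, was 1.67-fold higher (0.74 ± 0.16 SE), and Mbtps1, the protease that makes the first cut in Atf6, was 1.58-fold higher (0.66 ± 0.16 SE). Eif2ak2 (PKR), the eIF2 kinase that senses double-stranded RNA, was higher (0.60 ± 0.13 SE), with 4 of 4 resolution arrays and 1 of 4 control arrays above background, and at least 1.29-fold higher than on acute arrays, of which 0 of 3 were above background. Impact, an inhibitor of the amino acid sensing kinase Eif2ak4, averaged 12.56 on resolution arrays, 13.06 on acute arrays and 13.73 on control arrays. It was 2.25-fold lower on resolution than on control arrays (-1.17 ± 0.20 SE, adjusted p = 0.0013), and the acute difference from the same controls was -0.67 ± 0.21 SE with an adjusted p of 0.335. Nck1, an adaptor that modulates phosphorylation of eIF2, was 1.39-fold lower than control and 1.55-fold lower than acute on resolution arrays (-0.63 ± 0.11 SE, adjusted p = 0.00165).

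Of 30 tested further targets of Atf4 and Ddit3, 1 was higher (3.33%, against 9.6% of all genes) and 5 were lower (16.7%, against 9%) on resolution than on control arrays. Relative to acute arrays 3 were higher (10%, against 7.77%) and 5 lower (16.7%, against 6.69%). Slc7a11, which imports cystine and is also a target of Nrf2, had the largest fall, 19.7-fold against control and 13.4-fold against acute. Gadd45a, a growth arrest gene, was 4.34-fold lower and Ninj1, a mediator of membrane rupture, was 3.76-fold lower than control. Atf3, a stress-induced repressor, was 1.53-fold lower than control (-0.61 ± 0.16 SE, adjusted p = 0.0179) and had an adjusted p of 0.131 against acute. Eif4ebp1, which blocks cap-dependent translation, was 2.73-fold higher than control (1.45 ± 0.20 SE) and 2.5-fold higher than acute. In acute versus control Slc7a11 differed by -0.55 ± 0.53 SE, Atf3 by -0.19 ± 0.17 SE and Eif2ak2 by 0.02 ± 0.14 SE, and none passed. The median of the 30 in resolution versus control was -0.07, with differences of -4.30 to 1.45, and 11 had an unadjusted p under 0.05, against 31.3% of all genes.

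The 18 tested cytosolic aminoacyl-tRNA synthetases, several of which Atf4 induces, split evenly on resolution relative to control arrays, with 3 higher and 3 lower (16.7% each, against 9.6% and 9% of all genes) and a median of 0.00. Mars1, which charges the methionine tRNA, was 1.86-fold higher (0.90 ± 0.16 SE, adjusted p = 0.00212), and Iars, for isoleucine, was 1.39-fold higher. Rars, for arginine, was 1.56-fold lower (-0.64 ± 0.15 SE) and Sars, for serine, was 1.54-fold lower (-0.62 ± 0.17 SE). Relative to acute arrays Mars1 and Gars, for glycine, were higher (1.00 ± 0.18 and 0.43 ± 0.10 SE) and Rars was lower (-0.82 ± 0.16 SE). These were 11.1% higher and 5.56% lower, against 7.77% and 6.69% of all genes. In acute versus control 0 genes of these 4 lists passed with limma. Its unadjusted p was under 0.05 for 3 of the 51, 2 of the 25, 3 of the 30 and 1 of the 18, against 9.05% of all genes.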

How the data were processed

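RNA from alveolar macrophages was measured on 11 arrays. The deposited table holds linear intensities, made by the authors with Affymetrix Expression Console, per the submitters' processing notes. Not given in the sources used here: its version, summary algorithm and normalization. No further scaling was applied, and log2(intensity + 1) was computed from the deposited table. Named clusters came from the platform annotation, 1 cluster per symbol by highest mean. Genes needed at least 3 arrays above the array's own 40th percentile. limma 3.58.1 in R 4.3.3 fitted 3 group means over all arrays (8 residual and 4.48 prior degrees of freedom), two-sided, with Benjamini-Hochberg adjustment over 12143 genes. The test was tried on simulated data. Folds with a group at background are bounds: the mean of the brighter group over the background or, if higher, the dimmer group's mean. Errors are SE for differences and SD for levels, and the number of arrays limits the precision.

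The members and lists were chosen with earlier results of these data known. All measured members were named. Of each wider list the rule named up to 4 genes with the largest changes past the threshold per comparison, and Atf3, Slc7a11 and Eif2ak2 throughout. Sequences came from RefSeq tables matched by symbol, with 33 of 36 members found. Replicate numbers did not pair the arrays: same-numbered arrays correlated at -0.12 to 0.09 in their deviations from the group means. Alternatives covered scaling, offset, filter, cluster choice, variance model, array weights, a replicate block and left-out arrays.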

Additional observations from a re-analysis of the deposited data

Results flagged for a closer look

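In 72 groups of 4 arrays (36 members, control and resolution), 4 had 1 array far from the other 3 by Dixon's test, where chance flags about 1 in 20 groups. Dnajb11 was 10.59 on control replicate 4, against 10.98 on the nearest control array. Dnajc3 was 11.84 on resolution replicate 3, against 12.14 on the nearest resolution array. Shmt2 was 10.59 on resolution replicate 2, against 10.95 on the nearest resolution array. Syvn1 was 10.84 on control replicate 1, above the nearest control array at 10.66. None of these genes passed the test in any comparison.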

How the results depend on the processing

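In resolution versus control 10 members passed, and 7 to 10 passed under the 23 alternatives. In acute versus control 0 passed under each of them. In resolution versus acute 6 passed, and leaving out 1 array gave 1 to 6, with 3 without acute replicate 1, 1 without acute replicate 2, 2 without acute replicate 3 and 2 without resolution replicate 2; the fit then has fewer arrays, and where 2 acute arrays remain their spread is taken from all groups. With the replicate number as a block (replicate block), 9 members passed in resolution versus control (3 higher and 6 lower), 0 in acute versus control and 4 in resolution versus acute (2 higher and 2 lower); the numbers do not pair the samples. Under the block Phgdh (adjusted p = 0.0471) and Psat1 (0.0299) passed in resolution versus control and Calr, Sel1l and Derl2 did not, and in resolution versus acute Sesn2 (0.022) passed and Atf4, Herpud1 and Xbp1 did not. No called difference changed sign. For calls of single members that ended in other settings, the cause was not tested. Dim signal limits Ppp1r15a, Sesn2, Trib3, Chac1, Vldlr, Cebpb and Derl3.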
